A study of Mus musculus with 20 samples.

Results

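Kinesins are the motor proteins that use ATP to walk along microtubules or to take them apart. The genes described here were chosen by name alone, as every gene symbol in the deposited tables that starts with Kif followed by a digit. 40 of the 24411 listed genes met that rule. All 40 were found in the GENCODE M21 annotation of mouse build GRCm38 (the mm10 build), on 15 chromosomes, and 38 of them are annotated as protein coding. Kif16bos is a non-coding transcript of the strand opposite to Kif16b, Kif4-ps is a pseudogene, and Kif1bp encodes a protein that binds kinesins and is itself no motor. The rule leaves out kinesins named otherwise (Kifc1, Kifc2, Kifc3, Kifc5b and Cenpe), which are described as a list of their own near the end.

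The series, whose title names zygotic genome activation and the pioneer factor Nr5a2, measured poly(A) RNA in small batches of 10 to 15 mouse eggs or embryos with Smart-seq2, a full-length method primed with oligo-dT. All 20 samples were labelled wild type and untreated. C57BL/6J, an inbred strain, gave 3 samples each of metaphase II (MII) eggs, G1 zygotes, G2 zygotes and 2-cell embryos in G2. B6CASTF1 hybrids gave 3 samples of G1 zygotes, 3 of G2 zygotes and 2 of 2-cell embryos in G2. Oocytes of every group were released from dbcAMP, which holds meiosis, and kept for 12 hours in M16 medium. Zygotes and embryos came from in vitro fertilization and culture in KSOM medium, under 5% oxygen. The direction of the hybrid cross and the number of females behind each group were not given in the sources used here, so p-values measure the spread between these samples, which may be technical. The library numbers in the sample titles differ between the strains, so strain and any difference between the 2 sets of libraries cannot be told apart.

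What the authors deposited are 5 tables of DESeq2 comparisons, each of a later stage with an earlier one within a strain: G1 zygotes with MII eggs in C57BL/6J, and G2 zygotes with G1 zygotes and 2-cell embryos with G2 zygotes in both strains. They hold a mean normalized count per strain and the fold changes, and no value per sample, so values by sample and the overlap of groups cannot be shown. A stage's approximate level was derived here from the strain-wide mean and the fold changes. It is a normalized count with no error of its own, relative to all RNA measured in a sample. A change in the amount of other RNA per embryo and a change in the transcript itself therefore cannot be told apart. Since poly(A) RNA was measured, a change in a transcript's poly(A) tail and a change in its amount cannot be told apart either. A gene is called higher or lower where the authors' adjusted p is under 0.05. In C57BL/6J 28 members had an adjusted p in each comparison, 2 were at 0, 6 had a fold change and no p, and 4 had a p and no adjusted p. In B6CASTF1 33 members had one at the G2 step and 37 at the 2-cell step. Members that passed this filter only through the stage at which they are high had to differ, so counts over tested members describe and support nothing more.

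Mammalian eggs are transcriptionally silent. The egg's stored mRNAs carry it through meiosis and the first division, and are degraded in steps as the embryo's own genome is switched on, in mouse mainly at the 2-cell stage. Kinesins with roles in division build the bipolar spindle, move and align chromosomes, trim microtubule ends and assemble the midzone at which the cell is cut. Transport kinesins carry vesicles, organelles, mitochondria and RNA towards microtubule plus ends, and the heterotrimeric kinesin of Kif3a and Kif3b, with the related Kif17, also serves cilia.

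The measurements were less precise in C57BL/6J. For members whose mean was 100 or more, log2 fold changes had a median SE of 0.70 in each C57BL/6J comparison (22 members), and 0.21 and 0.24 at the G2 and 2-cell steps of B6CASTF1 (24 members). The labelled cells carried their markers: 11 of 12 oocyte markers were at a level of at least 100 in MII eggs and in zygotes of both strains. Their summed level went from 265700 in MII eggs to 24540 at the 2-cell stage in C57BL/6J, and from 283200 in G1 zygotes to 28750 in B6CASTF1. Of 12 cumulus and granulosa cell markers, 4 were at 0 in C57BL/6J and 3 in B6CASTF1, and their summed level ran from 294 to 1621 in C57BL/6J and from 1177 to 2529 in B6CASTF1, mostly Cyp19a1 in eggs and zygotes. The part of these cells in the kinesin values was not tested.

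Kinesins of cytokinesis and the midzone took the largest share of the family's transcripts in eggs and zygotes. Levels are compared between genes per kilobase of the longest annotated protein-coding transcript. In MII eggs Kif23, the motor subunit of centralspindlin at the midzone, had the highest level per kilobase, 3869 normalized counts per kb, or 35.9% of the sum over all members. It was followed by Kif18a, which limits chromosome movements at the metaphase plate (1856 per kb), the cytokinesis motor Kif20b (1309 per kb) and Kif20a, which brings the chromosomal passenger complex and Polo-like kinase to the midzone (918 per kb). The same 4 genes led in G1 zygotes of both strains, with Kif23 at 38.9% of the sum in B6CASTF1. Together the kinesin-6 members Kif20a, Kif20b and Kif23 held 56.5% in MII eggs, 48.0% in G1 zygotes, 34.5% in G2 zygotes and 13.8% in 2-cell embryos of C57BL/6J. In B6CASTF1 they held 54.4%, 42.3% and 21.8% from G1 zygotes to 2-cell embryos.

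By the 2-cell stage that order had changed. In C57BL/6J, Kif18a (1432 per kb), the spindle pole separating motor Kif11 (1244 per kb), the chromokinesin Kif22 (1094 per kb) and the microtubule depolymerase Kif2a (1040.1 per kb) had the highest levels per kilobase. In B6CASTF1 the leading genes were Kif22 (6849 per kb, 26.9% of the sum), the centromeric depolymerase Kif2c (3505 per kb), Kif18a (3204 per kb) and Kif20a (2226 per kb). These orders are descriptions with no error, and neighbours such as Kif22 and Kif2a in C57BL/6J were not tested against each other.

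Summed over the 12 members with roles in division, the level per kilobase made up 89.1% of all members' in MII eggs, 84.2% in G1 zygotes, 74.8% in G2 zygotes and 83.6% in 2-cell embryos of C57BL/6J. In B6CASTF1 the share was 81.0%, 71.6% and 88.4% from G1 zygotes to 2-cell embryos. The total over members went from 10791 to 4874 per kb between MII eggs and G2 zygotes of C57BL/6J and stood at 8120 per kb in 2-cell embryos. In B6CASTF1 it was 14133 per kb in G1 zygotes, 11784 per kb in G2 zygotes and 25507 per kb in 2-cell embryos. The 13 transport members held their largest share, 18.8% in C57BL/6J and 25.7% in B6CASTF1, in G2 zygotes, where Kif17 alone stood at 487 and 1755 per kb.

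**Figure D1:**
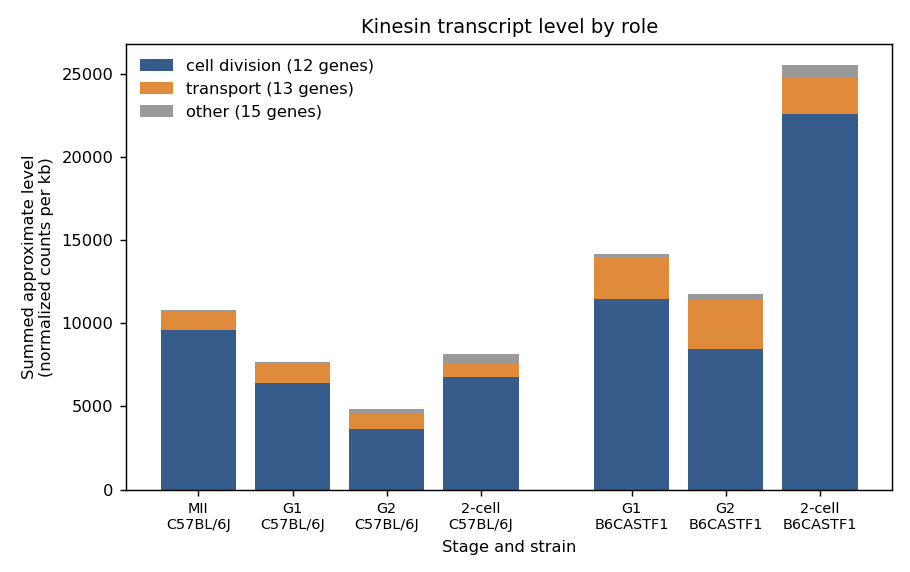
Stacked bars give the summed approximate level of kinesin genes (y axis, normalized counts per kb of transcript) at each stage of each strain (x axis), split by role into 12 division, 13 transport and 15 other genes. Division genes made up most of every bar, from 71.6% to 89.1%, and no error can be given for the sums.

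No kinesin was called between MII eggs and G1 zygotes. Of 28 members tested in C57BL/6J, 0 were higher and 0 lower by the authors' DESeq2 test, against 1.62% and 1.12% of all genes tested. 1 member passed an unadjusted p under 0.05, Kif20a, with a log2 fold change of -1.07 (adjusted p = 0.26, SE 0.44) in the authors' deposited table. Of the 11 tested division members 9 had negative values, with a median log2 fold change of -0.63, beside -0.08 over all genes tested. Kif23 stood at 13147 in MII eggs and 7272 in G1 zygotes, a log2 difference of -0.85 (adjusted p = 0.90, SE 0.59) in the authors' deposited table. A difference of that size was not detectable with this SE.

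Between G1 and G2 zygotes a few kinesin transcripts fell in B6CASTF1, Kif23 and Kif20a among them, and Kif17 rose. In that strain 2 of 33 tested members were higher (6.06%) and 6 lower (18.2%), against 9.63% and 9.63% of all genes tested. In C57BL/6J 0 of 28 were higher and 1 lower (3.57%), against 5.01% and 2.87%, so the share there was near the background.

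3 of the 6 that fell in B6CASTF1 work in division. Kif23 went from 18660.0 to 11177, a log2 fold change of -0.74 (adjusted p = 9.3e-06, SE 0.15) in the authors' deposited table. Kif20a went from 3883 to 2316, with -0.75 (adjusted p = 4.0e-05, SE 0.16) in the authors' deposited table. The third, Kif18b, which works at microtubule plus ends, was scarce, at 53.9 and 10.5, with -2.36 (adjusted p = 0.0044, SE 0.68) in the authors' deposited table. Kif23 had the same sign in C57BL/6J, from 7272 to 2603, and missed the threshold, at -1.48 (adjusted p = 0.11, SE 0.59) in the authors' deposited table.

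The other 3 that fell were transport genes. Kif3a, a motor subunit of heterotrimeric kinesin, fell in both strains. Its level went from 1204 to 226 in C57BL/6J, with -2.42 (adjusted p = 0.041, SE 0.82) in the authors' deposited table, a call that does not pass 0.01. In B6CASTF1 it went from 2677 to 1792, with -0.58 (adjusted p = 0.0078, SE 0.18) in the authors' deposited table. Kif1b, which moves mitochondria and synaptic vesicle precursors, went from 2688 to 1747, and Kif5b, the ubiquitous conventional kinesin heavy chain, from 1387 to 940.0. Their log2 fold changes were -0.62 (adjusted p = 4.5e-04, SE 0.15) and -0.56 (adjusted p = 0.0099, SE 0.17) in the authors' deposited table.

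Kif17 and Kif9 rose at this step in B6CASTF1. Kif17, a homodimeric motor of dendrites and cilia, went from 2669 to 6059, with 1.183 (adjusted p = 6.6e-07, SE 0.21) in the authors' deposited table. Its C57BL/6J levels were 829 and 1682, and the log2 fold change there was 1.02 (adjusted p = 0.77, SE 1.23) in the authors' deposited table. Kif9, a motor of motile cilia and flagella, went from 36.5 to 213, with 2.55 (adjusted p = 0.0029, SE 0.71) in the authors' deposited table. Direct comparison of the strains' log2 fold changes at this step called 0 of 27 members, against 1.92% of all genes tested. Only Kif3a passed an unadjusted p under 0.05 there, with a B6CASTF1 minus C57BL/6J difference of 1.84 (SE 0.83, 95% interval 0.20 to 3.47, adjusted p = 0.39).

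**Figure D2:**
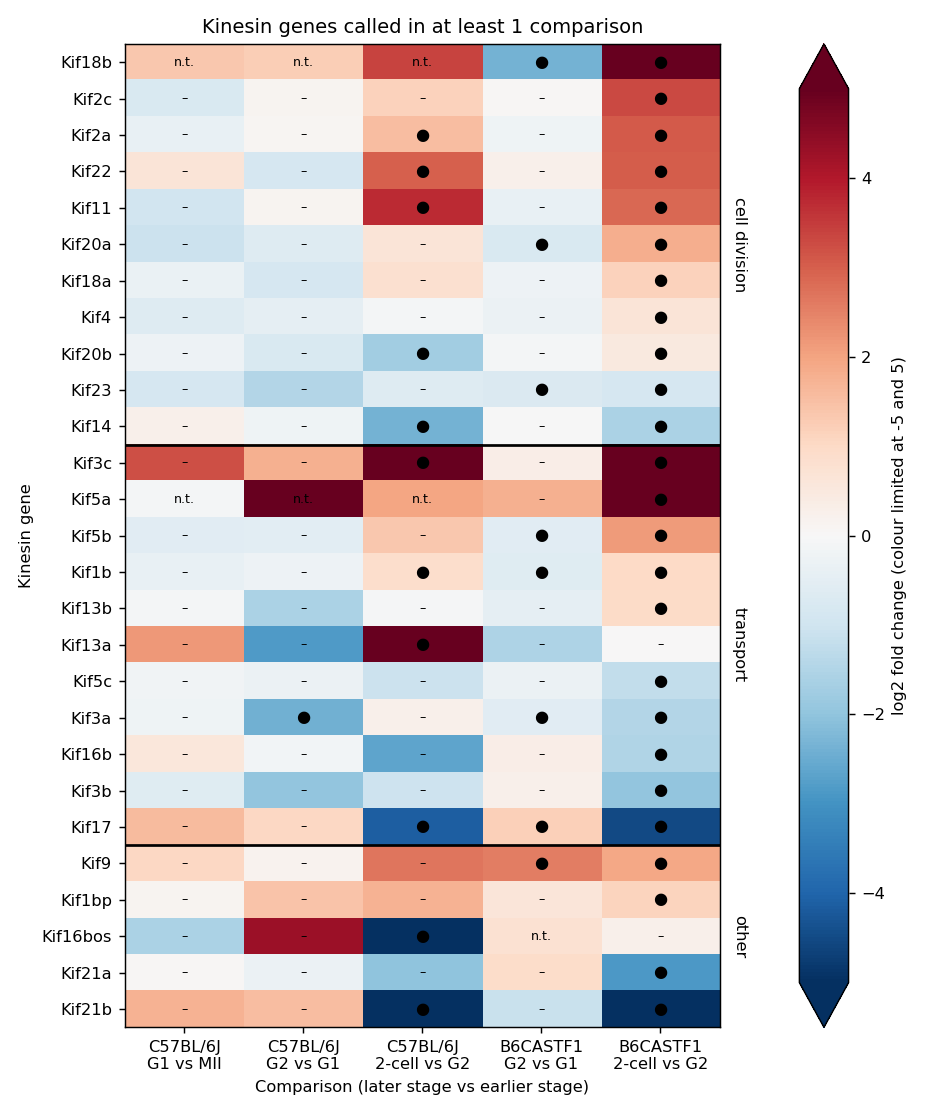
Rows are the 27 kinesin genes called in at least 1 comparison, grouped by role, and columns are the 5 comparisons. Colour gives the log2 fold change of the later against the earlier stage in the authors' tables (red higher, blue lower, limited at -5 and 5), a filled circle a call at adjusted p under 0.05, a dash no call and n.t. no adjusted p. Circles are absent from the G1 against MII column and most frequent at the 2-cell step.

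The 2-cell step held most of the calls. In C57BL/6J 6 of 28 tested members rose (21.4%) and 5 fell (17.9%), against 25.0% and 25.3% of all genes tested. In B6CASTF1 16 of 37 rose (43.2%) and 9 fell (24.3%), against 33.1% and 26.8%. The members' shares lay below the background in C57BL/6J, and in B6CASTF1 above it for rises and below it for falls, with no test of the difference. The median log2 fold change of the tested members was 0.44 in C57BL/6J and 1.11 in B6CASTF1, beside 0.17 and 0.55 over all genes tested. In B6CASTF1, 9 of the 12 division members rose and 2 fell, while 5 of 13 transport members rose and 5 fell. In C57BL/6J, 3 of 11 tested division members rose and 2 fell, and 3 of 10 tested transport members rose and 1 fell. Over all genes whose mean was 100 or more, the median log2 fold change at this step was 0.20 in C57BL/6J and 0.22 in B6CASTF1, and small rises are to be read against that shift.

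5 members rose in both strains: Kif11, Kif22, Kif2a, Kif3c and Kif1b. Kif11 (chr19:37376403-37421859 in GRCm38, protein coding, as are the genes located below) had levels of 799.6, 410.2, 453 and 5997 in MII eggs, G1 zygotes, G2 zygotes and 2-cell embryos of C57BL/6J, and of 844, 653 and 4801 from G1 zygotes to 2-cell embryos of B6CASTF1. It was thus low in zygotes and high at the 2-cell stage of both strains. Its log2 fold changes at this step were 3.73 (adjusted p = 2.3e-07, SE 0.67) and 2.88 (adjusted p = 7.4e-44, SE 0.20) in the authors' deposited table. Kif22, which binds DNA and pushes chromosome arms away from the poles, went from 291 to 2315 in C57BL/6J and from 1789.8 to 14485 in B6CASTF1. The log2 fold changes of Kif22 were 2.99 (adjusted p = 2.7e-07, SE 0.55) and 3.02 (adjusted p = 3.1e-48, SE 0.20) in the authors' deposited table, and the B6CASTF1 minus C57BL/6J difference was 0.03 (SE 0.58, 95% interval -1.12 to 1.17, adjusted p = 0.99).

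Kif2a (chr13:106958996-107022126), a depolymerase of spindle poles and interphase microtubules, went from 1883 to 5517 in C57BL/6J and from 823 to 6959 in B6CASTF1. The authors' deposited table gave it log2 fold changes of 1.55 (adjusted p = 7.6e-05, SE 0.36) and 3.08 (adjusted p = 5.9e-36, SE 0.24). Kif2a overlaps Dimt1, a ribosomal RNA methyltransferase gene on the opposite strand, which rose by 3.68 (adjusted p = 1.4e-06, SE 0.71) and 4.68 (adjusted p = 1.0e-82, SE 0.24) on the log2 scale in the authors' deposited table. Smart-seq2 libraries do not mark strand, so reads in the shared stretch cannot be told apart.

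Kif3c (chr12:3365132-3406494), which pairs with Kif3a and is known mainly from neurons, had the steepest of the shared rises. Its levels in C57BL/6J were 0.865, 8.15, 27.9 and 1675 from MII eggs to 2-cell embryos, and in B6CASTF1 22.1, 28.2 and 4749.6 from G1 zygotes on. The gene was near 0 in MII eggs and above 1000 at the 2-cell stage of both strains. The log2 fold changes were 5.91 (adjusted p = 0.0091, SE 2.03) and 7.40 (adjusted p = 6.7e-13, SE 0.998) in the authors' deposited table. Kif3c overlaps 1110002L01Rik on the opposite strand, which stood at 1.70 (adjusted p = 0.76, SE 4.09) in C57BL/6J and rose in B6CASTF1, at 6.86 (adjusted p = 2.0e-05, SE 1.53) in the authors' deposited table. Kif1b rose modestly, to 1284 and 3442, with 0.89 (adjusted p = 0.023, SE 0.35) and 0.98 (adjusted p = 2.0e-08, SE 0.17) in the authors' deposited table. Its C57BL/6J call is lost on recentring, in which the median of genes with a mean of 100 or more is set to 0, at a log2 fold change of 0.69.

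3 members fell in both strains: Kif14, Kif17 and Kif21b. Kif17 (chr4:138250435-138301967) dropped after its G2 peak, from 1682 to 96.2 in C57BL/6J and from 6059 to 265 in B6CASTF1. Its log2 fold changes of -4.13 (adjusted p = 0.0024, SE 1.23) and -4.51 (adjusted p = 3.3e-74, SE 0.24) in the authors' deposited table were the strongest falls among members with a mean of at least 100. In B6CASTF1 Kif17 alone among the members was called higher at the G2 step and lower at the 2-cell step. Kif14, which works with citron kinase in cytokinesis, went from 746 to 146 and from 1224 to 405, with -2.35 (adjusted p = 6.3e-04, SE 0.63) and -1.60 (adjusted p = 1.1e-06, SE 0.31) in the authors' deposited table. Kif21b, a regulator of microtubule growth, was at 133 in G2 zygotes of C57BL/6J and 15.0 in those of B6CASTF1, and near 0 at the 2-cell stage of both, with adjusted p of 1.3e-07 and 0.039 in the authors' deposited table.

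**Figure D3:**
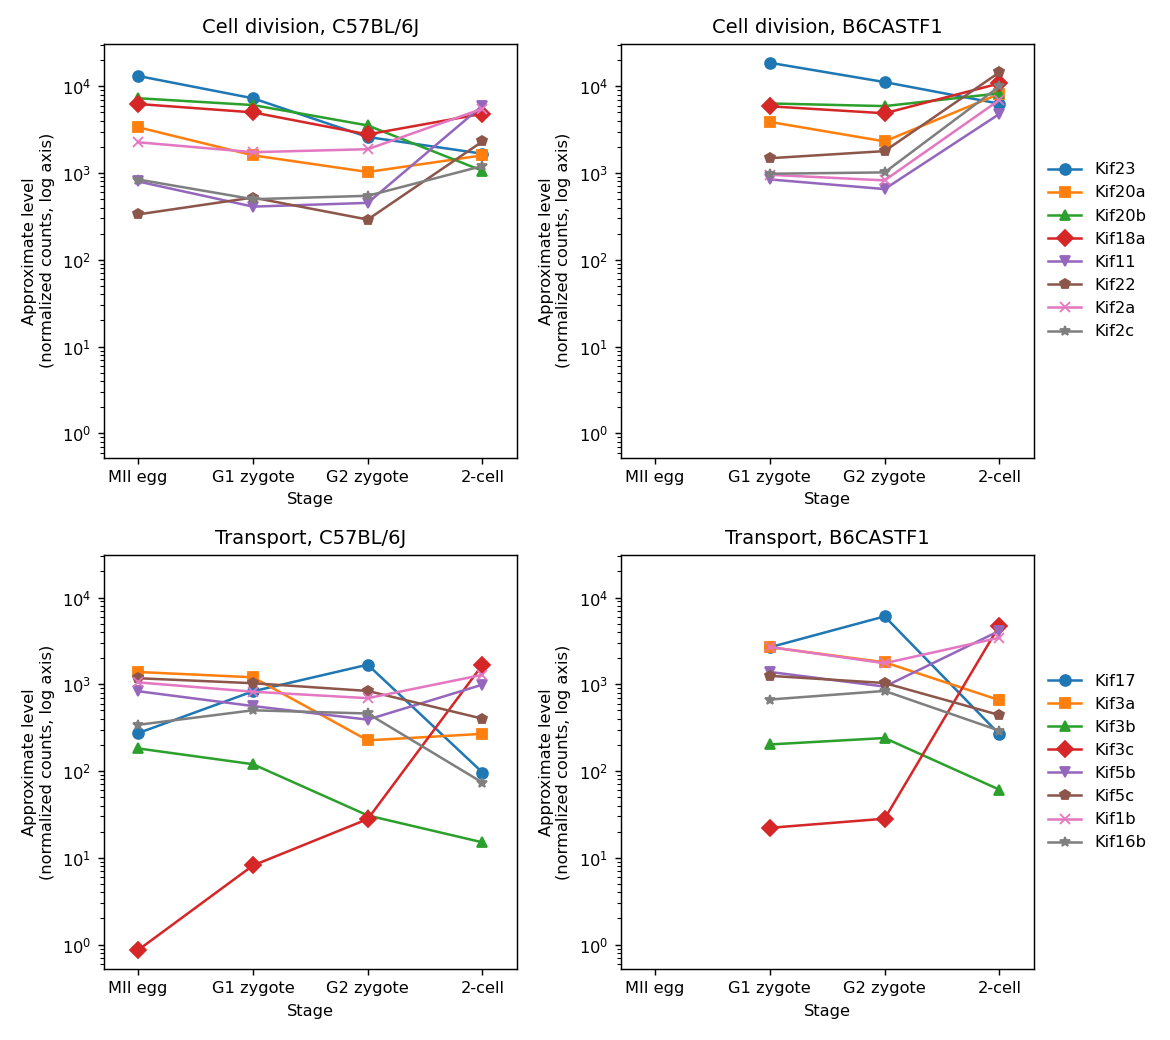
Approximate levels (y axis, normalized counts, log axis) of 8 division genes (top) and 8 transport genes (bottom) are plotted by stage (x axis) for C57BL/6J (left) and B6CASTF1 (right), with a line for each gene and no error. Kif11 and Kif3c climb at the 2-cell stage, where Kif17 drops after its G2 peak.

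The rise of Kif11 and Kif3c and the fall of Kif17 can be set beside the DNA just before their RefSeq start sites. The RefSeq promoter table of build GRCm38.p6 held entries for 32 of the 40 members (36 starts). The 250 bases before each start were searched on both strands for the cell cycle element TTTGAA, found before genes expressed in G2 and mitosis, the CCAAT box (CCAAT) and an Nr5a2-type element (TCAAGGNCA). TTTGAA occurred in 8 of the members' 36 windows (22.2%) and in 16% of 32851 windows of all genes, CCAAT in 16 (44.4%) and 33.8%, and TCAAGGNCA in 0 and 1.39%. Among the windows with a TTTGAA match, those of Kif14, Kif27 and Kif2c and a window of Kif1a lie inside the GENCODE gene. A letter match is a description only. In the lines below, 5′ to 3′ on the gene's strand, capitals mark matches to TTTGAA or CCAAT, or to their reverse complements.
Kif11 (chr19:37376132-37376381, plus strand): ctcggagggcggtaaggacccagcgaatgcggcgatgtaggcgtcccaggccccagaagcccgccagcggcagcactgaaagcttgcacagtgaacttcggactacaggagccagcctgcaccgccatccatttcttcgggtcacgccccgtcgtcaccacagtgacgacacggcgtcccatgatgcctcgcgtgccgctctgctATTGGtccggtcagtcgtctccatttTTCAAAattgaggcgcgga
Kif18b (chr11:102925125-102925374, minus strand): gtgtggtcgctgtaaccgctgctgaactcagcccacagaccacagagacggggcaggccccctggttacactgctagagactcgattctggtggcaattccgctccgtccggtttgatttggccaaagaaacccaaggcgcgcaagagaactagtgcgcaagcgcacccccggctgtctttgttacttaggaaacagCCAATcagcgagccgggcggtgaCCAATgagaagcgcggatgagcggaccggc
Kif3c (chr12:3364882-3365131, plus strand): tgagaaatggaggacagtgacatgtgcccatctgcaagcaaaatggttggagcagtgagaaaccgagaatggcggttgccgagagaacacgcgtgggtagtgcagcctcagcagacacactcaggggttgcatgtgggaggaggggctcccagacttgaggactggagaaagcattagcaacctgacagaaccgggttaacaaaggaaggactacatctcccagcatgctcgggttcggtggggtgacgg
Kif17 (chr4:138262001-138262250, plus strand): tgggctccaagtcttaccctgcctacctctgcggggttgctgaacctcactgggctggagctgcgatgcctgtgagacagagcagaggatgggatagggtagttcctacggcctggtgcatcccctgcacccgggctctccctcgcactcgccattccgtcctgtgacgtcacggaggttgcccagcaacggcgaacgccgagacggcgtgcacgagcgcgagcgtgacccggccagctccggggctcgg

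Kif11 carries a CCAAT match whose first base lies 45 bases before its start and a TTTGAA match at 19 bases. Kif18b, which rose in B6CASTF1, carries CCAAT matches at 53 and 30 bases and no TTTGAA match. Kif22 has CCAAT matches at 233 and 54 bases and TTTGAA matches at 215 and 17 bases before its RefSeq start, the last of which lies inside the first exon of the GENCODE model. None of these letters is in the windows of Kif3c, which rose in both strains, and Kif17, which fell and whose GENCODE gene also has a start further upstream. Other members with an entry went both ways at the 2-cell step of B6CASTF1. Of those that rose, Kif1b, Kif2c and Kif4 hold a match, and Kif2a, Kif9, Kif18a and Kif20b hold none. Of those that fell, Kif14, Kif23, Kif3a and Kif3b hold a match, and Kif16b, Kif21a and Kif5c hold none. The windows of Kif14, Kif2c, Kif4 and Kif17 lie inside the GENCODE gene.

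11 members were called higher at the 2-cell step in B6CASTF1 and not in C57BL/6J. The matching share over all genes was not computed. Of all genes tested, 33.1% were called higher in B6CASTF1 and 25.0% in C57BL/6J, where SEs were larger, so the count only describes the members. Among the 11, Kif18b and Kif5a had no p in C57BL/6J and could not be called there. For 2 of the 11, Kif2c and Kif20b, the difference between strains was itself called. Kif2c, which corrects faulty attachments of microtubules to kinetochores, went from 1018 to 9961 in B6CASTF1 and from 546 to 1205 in C57BL/6J. The authors' deposited table gave log2 fold changes of 3.29 (adjusted p = 5.3e-67, SE 0.19) and 1.14 (adjusted p = 0.11, SE 0.61). Kif20a went from 2316 to 8180.3, and from 1028 to 1599 in C57BL/6J, with 1.82 (adjusted p = 3.5e-24, SE 0.18) and 0.64 (adjusted p = 0.22, SE 0.44) in the authors' deposited table. Kif20a overlaps Cdc23 on the opposite strand, with 1.28 (adjusted p = 0.0087, SE 0.45) in B6CASTF1 and 0.09 (adjusted p = 0.97, SE 1.63) in C57BL/6J in the authors' deposited table. For Kif20a the direct test of the strain difference missed the threshold, at 1.184 (SE 0.47, 95% interval 0.26 to 2.11, adjusted p = 0.068).

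Kif18b climbed from 10.5 to 1531 in B6CASTF1, with 7.18 (adjusted p = 9.9e-22, SE 0.73) in the authors' deposited table. In C57BL/6J its levels were 47.0 and 485, and the authors' deposited table gives a log2 fold change of 3.37 (SE 1.88) with no p. Whether 1 library gives these C57BL/6J levels was not tested, since no values per sample were at hand. Kif18a went from 4884 to 10794, with 1.14 (adjusted p = 1.8e-09, SE 0.18) in the authors' deposited table, and in C57BL/6J from 2785 to 4824, with 0.79 (adjusted p = 0.14, SE 0.46). Kif18a was thus tested in C57BL/6J without a call, and Kif18b was not tested there. Mettl15, which overlaps Kif18a on the opposite strand, fell in both strains, with log2 fold changes of -2.20 (adjusted p = 0.035, SE 0.92) and -2.85 (adjusted p = 1.1e-21, SE 0.29) in the authors' deposited table. The chromokinesin Kif4, which organises the midzone and chromosome axes, rose slightly in B6CASTF1, from 1827 to 2837, and stood at 1238 and 1168 in C57BL/6J. The log2 fold changes of Kif4 were 0.63 (adjusted p = 0.0016, SE 0.19) and -0.08 (adjusted p = 0.91, SE 0.47) in the authors' deposited table. Kif4 also overlaps a gene on the opposite strand, Pdzd11, with log2 fold changes of 1.53 (adjusted p = 2.1e-05, SE 0.33) and 1.26 (adjusted p = 2.7e-06, SE 0.26) in the authors' deposited table.

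Among transport members, Kif5b rose from 940.0 to 4126 in B6CASTF1, with 2.13 (adjusted p = 3.1e-27, SE 0.19) in the authors' deposited table. Its C57BL/6J levels were 391 and 991, with 1.34 (adjusted p = 0.40, SE 1.30) in the authors' deposited table. The neuronal heavy chain Kif5c fell in B6CASTF1, from 1034 to 442, and stood at 838 and 401 in C57BL/6J. The log2 fold changes of Kif5c were -1.23 (adjusted p = 4.5e-04, SE 0.33) and -1.06 (adjusted p = 0.21, SE 0.72) in the authors' deposited table. Per kilobase, Kif5b and Kif5c stood at 156 and 151 in G2 zygotes of B6CASTF1 and at 684 and 64.5 at the 2-cell stage. The other neuronal heavy chain, Kif5a, was scarce and reached 85.9 in B6CASTF1, with 5.20 (adjusted p = 0.042, SE 2.32) in the authors' deposited table, a call lost on recentring (4.97).

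The motor subunits of heterotrimeric kinesin moved in opposite directions in B6CASTF1. In B6CASTF1 Kif3a fell from 1792 to 656 and its partner Kif3b from 240.1 to 61.0, while Kif3c rose. The log2 fold changes were -1.45 (adjusted p = 1.7e-12, SE 0.20) for Kif3a and -1.98 (adjusted p = 0.0060, SE 0.67) for Kif3b in the authors' deposited table. In C57BL/6J Kif3a was already low in G2 zygotes, at 226, and stood at 268 in 2-cell embryos, and Kif3b was at 30.8 and 15.1. Neither change was called there, at 0.25 (adjusted p = 0.83, SE 0.82) and -1.03 (adjusted p = 0.66, SE 1.78) in the authors' deposited table. Per kilobase, Kif3a exceeded Kif3c in G1 zygotes (381 and 1.2 in C57BL/6J, 847 and 3.26 in B6CASTF1), and Kif3c exceeded Kif3a at the 2-cell stage (247 and 84.8, 699 and 208).

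Kif16b, which moves early endosomes, fell in B6CASTF1 from 838 to 292, with -1.52 (adjusted p = 1.4e-09, SE 0.24) in the authors' deposited table. In C57BL/6J it went from 460.4 to 73.5, with -2.65 (adjusted p = 0.14, SE 1.54) in the authors' deposited table. Kif16bos, whose annotated gene lies beside Kif16b without overlapping it, was called lower in C57BL/6J, from 58.2 to near 0 (the authors' deposited table gives an adjusted p of 0.016), and was at 6.39 in 2-cell embryos of B6CASTF1. Kif13b, a carrier of signalling complexes, rose in B6CASTF1 from 369 to 719, with 0.96 (adjusted p = 0.032, SE 0.41) in the authors' deposited table, a call lost on recentring (0.74). In C57BL/6J it stood at 163 and 158, with -0.05 (adjusted p = 0.98, SE 1.09) in the authors' deposited table.

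Kif23 fell further at the 2-cell step of B6CASTF1. There it went from 11177 to 6294, with -0.83 (adjusted p = 1.4e-06, SE 0.16) in the authors' deposited table. In C57BL/6J it went from 2603 to 1670.3, with -0.64 (adjusted p = 0.38, SE 0.59) in the authors' deposited table. Kif23 thus led the family per kilobase in eggs and was no longer among its 4 highest members at the 2-cell stage of either strain.

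Of the 15 members outside these roles, Kif9 and Kif1bp rose and Kif21a fell in B6CASTF1. Kif9 reached 818 from 213, Kif1bp 922 from 427, and Kif21a, which restrains microtubule growth at the cell cortex, went from 198 to 26.8. Their log2 fold changes were 1.94 (adjusted p = 0.022, SE 0.77), 1.11 (adjusted p = 0.0056, SE 0.37) and -2.88 (adjusted p = 8.2e-04, SE 0.81) in the authors' deposited table. In C57BL/6J all 3 had the same sign without a call, at 2.69 (SE 1.42), 1.75 (SE 1.182) and -2.02 (SE 1.38) in the authors' deposited table. The 7 markers of ciliated oviduct epithelium, a tissue rich in axonemal motors, summed to 189 in G1 zygotes, 259 in G2 zygotes and 7086 in 2-cell embryos of B6CASTF1, of which 6336 was Epcam. At the 2-cell step 3 of 5 tested rose and 1 fell in B6CASTF1, against 33.1% and 26.8% of all genes tested. In C57BL/6J 3 of 4 rose and 1 fell, against 25.0% and 25.3%. The highest marker in G2 zygotes was Dnah5, at 164 of a summed 171 in C57BL/6J and 150 of 259 in B6CASTF1. Named next are the called markers of smallest p beside Epcam, so the falls go unnamed. The axonemal Rsph1 was among the rises in B6CASTF1, at 6.51 (adjusted p = 1.5e-08, SE 1.10), and the tektin Tekt1 in C57BL/6J, at 7.84 (adjusted p = 5.0e-07, SE 1.46), in the authors' deposited table, while Foxj1 and Pax8 were at 0 in both strains. Their part in the Kif9 values was not tested. 2 members were expressed without a call in any comparison: the spindle motor Kif15, at 22.6 to 186 over all stages and strains, and the centriolar Kif24, at 82.4 to 243. Kif12 and Kif2b were at 0 in both strains, and Kif1a, Kif1c, Kif19a, Kif26a, Kif26b, Kif27, Kif6, Kif7 and Kif4-ps had levels of at most 111.

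4 of 28 members (14.3%) changed by different amounts in the 2 strains at the 2-cell step, by the difference of log2 fold changes over its combined SE, against 16.6% of all genes tested. Kif20b (chr19:34922361-34975745) went in opposite directions. It fell in C57BL/6J from 3538 to 1061 and rose slightly in B6CASTF1 from 5908 to 8293. The log2 fold changes were -1.74 (adjusted p = 0.0016, SE 0.50) and 0.49 (adjusted p = 0.0050, SE 0.16) in the authors' deposited table, and their difference was 2.23 (SE 0.52, 95% interval 1.198 to 3.25, adjusted p = 4.2e-04). The small B6CASTF1 rise is lost on recentring (0.27), whereas the difference keeps its call.

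Kif2a and Kif2c, both depolymerases, rose more in B6CASTF1. The difference was 1.53 (SE 0.43, 95% interval 0.68 to 2.38, adjusted p = 0.0050) for Kif2a and 2.15 (SE 0.64, 95% interval 0.90 to 3.40, adjusted p = 0.0080) for Kif2c. Kif13a, a carrier of recycling endosomes and the mannose-6-phosphate receptor, was near 0 in eggs and zygotes of C57BL/6J and at 319 in 2-cell embryos (adjusted p = 6.4e-04 in the authors' deposited table). In B6CASTF1 its levels were 73.2, 25.4 and 25.4 from G1 zygotes to 2-cell embryos, and the difference was called (adjusted p = 0.0087). With C57BL/6J zygotes this close to 0, the fitted size of the Kif13a difference is uncertain, and the gene drops out under a minimum mean of 100.

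The 2 strains shared 8 calls of the same direction, which is 72.7% of the 11 C57BL/6J calls and 32% of the 25 B6CASTF1 calls. Among those 25, Kif18b and Kif5a had no p in C57BL/6J and could not be shared. The matching shares over all genes were not computed, so these percentages only describe the members. Of the 28 members tested in both, 22 had the same sign (78.6%), beside 81.2% of 12573 genes. The strains share no samples. The shorter C57BL/6J list came with the larger SEs given above.

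**Figure D4:**
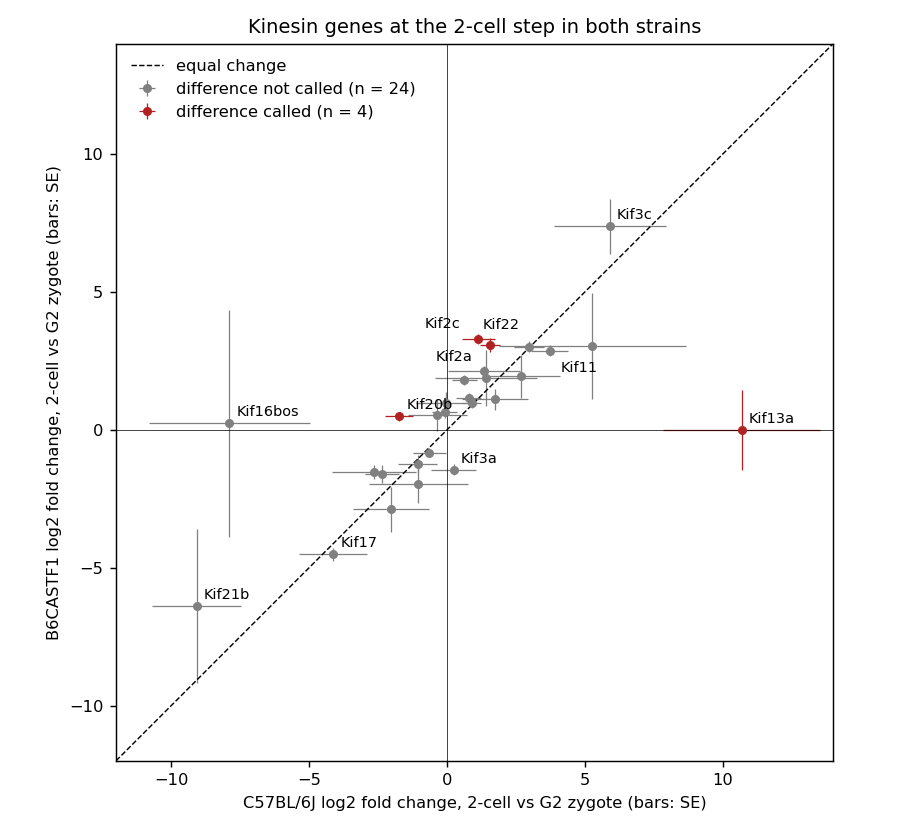
Each point is 1 of the 28 kinesin genes tested at the 2-cell step in both strains, with its log2 fold change in C57BL/6J (x axis) and in B6CASTF1 (y axis) from the authors' tables and bars of 1 SE. The 4 red genes, Kif13a, Kif20b, Kif2a and Kif2c, differed between strains at adjusted p under 0.05, and the dashed line marks equal change.

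The kinesins outside the naming rule behaved variously. Of the 5, 0 rose and 2 fell at the 2-cell step of C57BL/6J, against 25.0% and 25.3% of all genes tested, and 1 rose and 1 fell in B6CASTF1, against 33.1% and 26.8%. Kifc1, a minus-end motor that focuses spindle poles, rose between the zygote stages of C57BL/6J, by 1.82 (adjusted p = 0.045, SE 0.62) on the log2 scale in the authors' deposited table. At the 2-cell step Kifc1 was called lower in C57BL/6J, at -9.7 (adjusted p = 4.3e-12, SE 1.33) in the authors' deposited table. It was not called in B6CASTF1, at -0.20 (adjusted p = 0.77, SE 0.56) in the authors' deposited table. Cenpe, the kinetochore kinesin, fell slightly in B6CASTF1, with -0.39 (adjusted p = 0.0020, SE 0.10) at the G2 step and -0.35 (adjusted p = 0.0059, SE 0.12) at the 2-cell step in the authors' deposited table. Kifc2 was called higher at that step (adjusted p = 2.6e-13 in the authors' deposited table).

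Light chains, adaptors and cargo linkers, which tie transport kinesins to their loads, had positive medians at the 2-cell step. Of 15 tested in C57BL/6J 5 rose and 0 fell, against 25.0% and 25.3% of all genes tested, and of 17 in B6CASTF1 7 rose and 3 fell, against 33.1% and 26.8%. Their median log2 fold changes were 1.44 and 1.24, beside 0.17 and 0.55 over all genes tested. The list includes Kif1bp, which is also a member and is among the rises in B6CASTF1. Arl8b, which links lysosomes to kinesin, fell between the zygote stages, at -2.10 (adjusted p = 1.5e-09, SE 0.30) in C57BL/6J and -2.50 (adjusted p = 2.5e-35, SE 0.19) in B6CASTF1, all in the authors' deposited table. It rose at the 2-cell step of both strains, at 1.44 (adjusted p = 1.2e-05, SE 0.30) and 1.46 (adjusted p = 8.0e-11, SE 0.22) in the authors' deposited table. The light chain Klc4 rose in B6CASTF1 and the Arl8b relative Arl8a fell, at 5.00 (adjusted p = 6.2e-14, SE 0.65) and -4.51 (adjusted p = 5.0e-33, SE 0.37) in the authors' deposited table.

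Among spindle and midzone partners of the mitotic kinesins, falls were at least as many as rises at the 2-cell step. At the 2-cell step 2 of 26 tested in C57BL/6J rose and 10 fell, against 25.0% and 25.3% of all genes tested, and 10 of 27 in B6CASTF1 rose and 11 fell, against 33.1% and 26.8%. Their medians were -0.17 and -0.20, beside 0.17 and 0.55. Kifc1, counted above outside the naming rule, is in this list too and among the falls in C57BL/6J. Cep55, which acts in abscission, fell in both strains, with -4.45 (adjusted p = 1.2e-15, SE 0.53) and -3.80 (adjusted p = 8.4e-92, SE 0.19) in the authors' deposited table. Between the zygote stages, 3 of 26 rose and 0 fell in C57BL/6J, against 5.01% and 2.87% of all genes tested, and 6 of 27 rose and 6 fell in B6CASTF1, against 9.63% and 9.63%. The spindle protein Hmmr was among the rises, at 1.47 (adjusted p = 7.6e-11, SE 0.20) and 1.31 (adjusted p = 8.3e-20, SE 0.14) in the authors' deposited table.

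Dynein and dynactin, the motor that walks the opposite way, held rises and falls at the 2-cell step. Of 27 tested in C57BL/6J 9 rose and 7 fell, against 25.0% and 25.3% of all genes tested, and of 28 in B6CASTF1 10 rose and 7 fell, against 33.1% and 26.8%. The light chain Dynll1 rose between the zygote stages, at 2.16 (adjusted p = 3.9e-11, SE 0.29) and 1.92 (adjusted p = 2.7e-34, SE 0.15), and its relative Dynll2 at the 2-cell step, at 3.60 (adjusted p = 7.3e-26, SE 0.33) and 3.73 (adjusted p = 1.6e-117, SE 0.16), all in the authors' deposited table. None of these 4 lists had a call between MII eggs and G1 zygotes. Each of them is a description of counts and was not compared with the kinesins by a test.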

How the data were processed

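The submitters' processing notes list bcl2fastq, kallisto, TopHat, Picard, DESeq2 and build mm10, without saying which step made which value. Per the file headers, the authors deposited for each comparison the DESeq2 mean normalized count over a strain's samples (a signal value, in place of raw counts), the log2 fold change, its SE, a Wald score, a p-value and an adjusted p, and a shrunken log2 fold change. Per the names of the deposited files, the authors used DESeq2 version 1.18.1. Depth per sample was not given in the sources used here, nor was the counting setting.

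Members were every symbol starting with Kif and a digit. The members and lists were chosen with earlier results of these data known. The text gives values for every member called with a mean of at least 100, for Kif11, Kif2c, Kif4, Kif5b, Kif18a, Kif20a, Kif20b and Kif23 in any case, and, for each list and comparison, draws on the 2 called genes of smallest p. Calls are the authors' adjusted p under 0.05. 6 members in C57BL/6J and 0 in B6CASTF1 have a fold change without a p. The approximate level weights stages by 3 samples, and by 2 for B6CASTF1 2-cell embryos: the ratio of SEs of the 2-cell and G2 steps there, 1.118, is the one these numbers give. Strains were compared by the difference of log2 fold changes over the root of the summed squared SEs, with a normal p and Benjamini-Hochberg adjustment over all genes tested in both, a calculation tested on simulated data. Python 3.11.15, pandas 2.3.3, scipy 1.17.1 and matplotlib 3.10.9 were used. Alternatives were other thresholds, filters on the mean, recentring, shrunken values and 3 samples for B6CASTF1 2-cell embryos.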

Additional observations from a re-analysis of the deposited data

Results flagged for a closer look

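4 kinesin genes changed by different amounts in the 2 strains between G2 zygotes and 2-cell embryos, by the test of the difference itself. They are 4 of 28 tested members (14.3%), against 16.6% of all genes tested, so the count is near the background. The B6CASTF1 minus C57BL/6J difference of log2 fold changes was 2.23 for Kif20b, 1.53 for Kif2a, 2.15 for Kif2c and -10.69 for Kif13a. Kif20b fell in C57BL/6J, whereas Kif2a and Kif2c had positive values in both strains and larger ones in B6CASTF1. The Kif13a value rests on C57BL/6J zygotes near 0, and its size depends on the fit. Strain and library set cannot be told apart. Per sample values were not at hand, so single samples far from the others could not be looked for.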

How the results depend on the processing

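Leaving out single replicates could not be run, since the tables hold no value per sample. No paired analysis was possible because the tables hold no value per sample, and the labels give no replicate numbers that groups share. Of the counts of called members, 3 moved by more than 1.5 times. At an adjusted p under 0.01, 0 members were lower at the G2 step of C57BL/6J in place of 1 (Kif3a). With a mean of at least 100, 3 were lower at its 2-cell step in place of 5 (Kif16bos and Kif21b dropped out). With a log2 fold change of at least 1 in size, 1 was lower at the G2 step of B6CASTF1 in place of 6. Of 45 called fold changes, recentring ended 4 calls, all at the 2-cell step (Kif1b in C57BL/6J; Kif13b, Kif20b and Kif5a in B6CASTF1), and the shrunken values kept the direction of all 45. The strain differences of Kif20b, Kif2a and Kif2c kept their calls under every alternative run, and that of Kif13a was lost only under a mean of at least 100. Assuming 3 samples at the 2-cell stage of B6CASTF1 moved levels there by at most 0.41 on the log2 scale. For Kif11, Kif22, Kif2a and Kif2c, to 4029, 11865, 5750 and 8095, the shift exceeded the SE of the gene's log2 fold change at that step, and the other 22 of 26 levels moved by less than that SE. The larger SEs of C57BL/6J limit which changes could be called there.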

Other observations

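6 members carry a fold change and no p in the C57BL/6J tables, where 1834 genes in all have this form, against 78 genes and 0 members in B6CASTF1. They are Kif18b, Kif1c, Kif26b, Kif5a, Kif6 and Kif7. Kif6, a motor linked to ependymal cilia, and Kif7, a regulator of Hedgehog signalling at the tip of the cilium, were at 0 in G2 zygotes of C57BL/6J and at 86.7 and 78.6 in 2-cell embryos. In B6CASTF1 the 2-cell levels of Kif6 and Kif7 were 47.3 and 2.55. Kif7 overlaps Ticrr on the opposite strand, whose mean in C57BL/6J was 1107, beside 19.6 for Kif7. At the 2-cell step of C57BL/6J, Ticrr stood at 0.03 (adjusted p = 0.99, SE 1.17) on the log2 scale in the authors' deposited table. The part of Ticrr reads in the Kif7 values was not tested. Without values per sample it was not tested whether 1 library gives the C57BL/6J levels of these 6 members.

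The haemoglobin gene Hba-a1, fixed here as a blood marker, reached 3827 in C57BL/6J and 2858 in B6CASTF1 at the 2-cell stage, while 3 and 2 of the 6 blood markers were at 0. The sperm and testis markers summed to at most 249 at any stage of either strain. The part of other cells in the kinesin values was not tested.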
